A study of Mus musculus with 14 samples.

Results

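The mitochondrially encoded genes are the 37 genes that the deposited tables place on the mitochondrial chromosome, out of 40,853 genes in all. They were chosen by chromosome alone, and comprise 13 protein-coding genes, 2 rRNA genes and 22 tRNA genes. No measured value entered this rule, but it was set with earlier results of these data known. The tables place 28 of them on the plus strand, whose RNAs are copied from the heavy strand of the mitochondrial DNA. The other 9, ND6 and the tRNA genes TrnQ, TrnA, TrnN, TrnC, TrnY, TrnS1, TrnE and TrnP, lie on the minus strand, and their RNAs are copied from the light strand. Start, end and strand of all 37 were the same in the GENCODE M21 annotation.

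The levels come from RNA sequencing of αTN4-1, a mouse lens epithelial cell line, in 14 libraries. There were 7 lines, all grown under neomycin. The 3 lines labelled S133A-CREB, S133A/R314A-CREB and S133A-KCREB are described in the labels as overexpressing CREB forms in which the serine phosphorylated by protein kinase A is replaced by alanine. The lines labelled WT-CREB, R314A-CREB and KCREB are described as overexpressing the same forms with that serine, and the line labelled Vector is their control. The level of Creb1 went against these labels in 4 of the 6 CREB lines, as given with the depth. CREB acts on genes with cAMP response elements, KCREB is a form of it that does not bind DNA, and R314A lies in the leucine zipper. From each line came 1 library after 24 h in serum-free medium with TGFβ at 20 ng/mL, and 1 control library, so no line and treatment has a replicate. The sources used here do not say if the controls also went without serum, so effects of TGFβ and of serum withdrawal cannot be told apart. Nor do they say if a line is a clone or a pool of cells.

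Mammalian mitochondrial DNA is copied into long RNAs that run through many genes on each strand. These are cut, mostly at the tRNAs that stand between the genes, into rRNAs, tRNAs and mRNAs, and most mRNAs then receive a short poly(A) tail. The proteins are core subunits of the respiratory chain and of ATP synthase, and all other subunits come from nuclear genes.

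Between 12,545 and 13,081 genes per library reached 1 TPM, a level per length of gene that adds up to the same total in every library. Read totals were not given. The coverage that corresponds to 1 FPKM, which follows depth, ran from 5.74 to 10.1 in the TGFβ libraries and from 5.05 to 8.96 in the controls. Creb1, the gene of the expressed protein, stood above Vector in both lines labelled with K and below it in the other 4 CREB lines, with 4.43 TPM in the TGFβ library labelled S133A-CREB against 23.1 TPM in that of Vector, so lines are named here as labelled. Of the lens epithelial markers, Pax6 had a median of 99.7 TPM and Six3 of 60.2 TPM over the 14 libraries, while Foxe3 was listed at 0 in 13 libraries and Gja1 in 12.

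Messages of complex I subunit 1, complex IV subunit 1 and cytochrome b held most of the mitochondrial signal. COX1, the catalytic subunit of cytochrome oxidase (mitochondrial chromosome, 5328 to 6872, GRCm39), had a median of 19,918 TPM, with a range of 16,232 to 24,949 TPM. ND1, a complex I subunit (2751 to 3707), had a median of 13,417 TPM, with a range of 9519 to 25,468 TPM. CYTB, the only mitochondrially encoded subunit of complex III (14145 to 15288), had a median of 11,663 TPM, with a range of 9356 to 16,909 TPM. The ranges of these 3 genes overlapped, and in both libraries labelled WT-CREB ND1 stood above COX1.

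The complex I subunits ND2, ND5 and ND4 followed with medians of 6371, 4462 and 3324 TPM. ND6, the only protein gene of the light strand, had a median of 1432 TPM. The large-subunit rRNA mt-Rnr2 had a median of 2207 TPM and the small-subunit rRNA mt-Rnr1 of 870 TPM. Their ratio ran from 1.38 to 3.98 over the 14 libraries. The level of rRNA in libraries made with an mRNA kit need not follow the rRNA in the cells.

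The other 6 protein-coding genes lay far lower. ATP8 and ATP6, subunits of ATP synthase, had medians of 240 and 199 TPM, COX2 and COX3, the other mitochondrial subunits of cytochrome oxidase, 148 and 78.9 TPM, and the complex I subunits ND4L and ND3 87.3 and 23.7 TPM. COX1 was 82.4 to 197 times as high as COX2 within a library and 123 to 300 times as high as COX3.

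**Figure D1:**
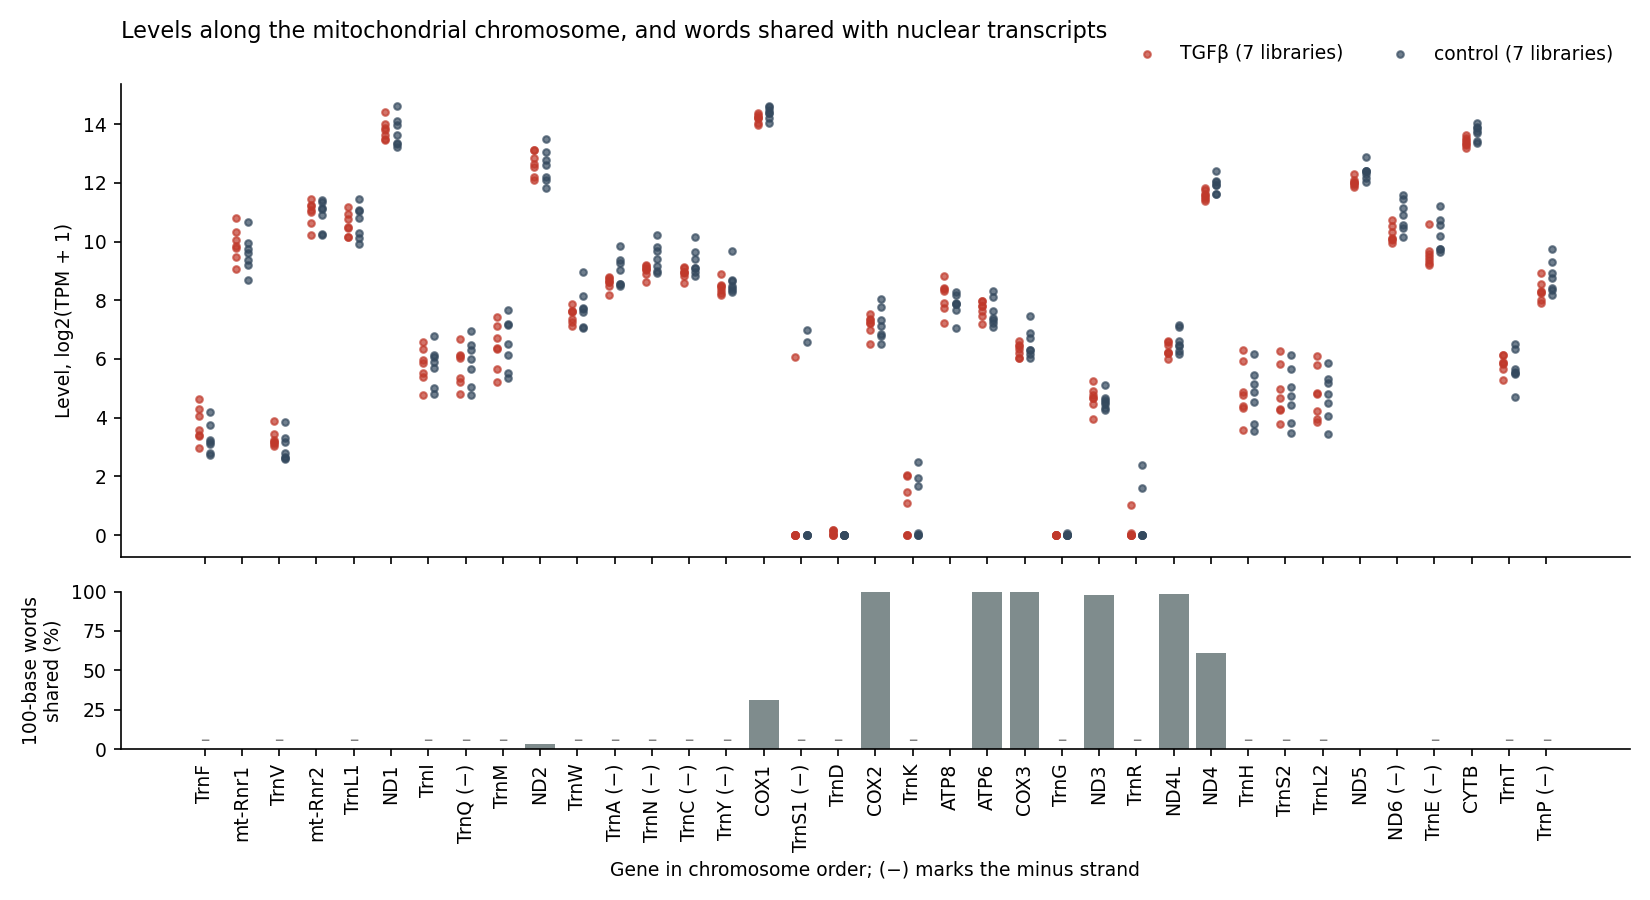
The upper part plots the level of each of the 37 genes as log2(TPM + 1) in chromosome order, with TGFβ libraries left and control libraries right, 1 point per library. The lower part plots the percent of a gene's 100-base words that also occur in a nuclear transcript, with a dash for tRNA genes, which are shorter than 100 bases. COX2, ATP6, COX3, ND3 and ND4L have the highest percentages and lie with ATP8 below the other protein-coding genes.

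These low genes share their sequence with the nuclear genome. Of all runs of 100 bases in COX3, 99.9% also occur in a nuclear transcript of GENCODE M21, and the percentages were 99.5% for COX2 and for ATP6, 98.5% for ND4L and 97.6% for ND3. These 5 genes ranged from 14.6 to 314.1 TPM over all libraries. The 5 genes with under 5% shared apart from ATP8, which are ND1, ND2, ND5, ND6 and CYTB, ranged from 982 to 25,468 TPM. ND4 shared 60.8% and COX1 30.8%.

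The copies are 7 pseudogenes on the minus strand of chromosome 1, between bases 24611535 and 24616197 of GRCm38, each over 99% identical to its mitochondrial gene over the matched part. None of the 7 names matched a row of the deposited tables. ATP8 shares no run of 100 bases with an annotated transcript. It lies between COX2 and ATP6, and the distance between the matched parts of those 2 genes, 233 bases on the mitochondrial chromosome, is also 233 bases between their copies on chromosome 1. How the aligner and StringTie divided reads between such copies is not given in the sources used here, so the levels of these 6 genes are uncertain, and the part of shared sequence in them was not tested.

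Windows from the GENCODE M21 transcripts (GRCm38) are shown here because they set low genes beside a high one. COX2 (7325 to 7384) is identical to its copy Gm28661 (chr1:24615194-24615253, minus strand) over these 60 bases. ND3 (9459 to 9518) differs from Gm28438 (chr1:24613060-24613119, minus strand) by T3C, with positions counted from 1 at the left end of the window. CYTB (14687 to 14746) differs from its closest annotated copy, Gm11410 (chr4:80004531-80004590, plus strand), by T22C, C25T, G28A and C49T, and the pair is 92.9% identical over 1142 bases. Capitals mark bases that differ between a gene and its copy.
COX2: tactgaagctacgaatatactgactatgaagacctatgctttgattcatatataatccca
Gm28661: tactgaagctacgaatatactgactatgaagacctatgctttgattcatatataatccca
ND3: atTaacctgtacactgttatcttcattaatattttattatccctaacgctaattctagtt
Gm28438: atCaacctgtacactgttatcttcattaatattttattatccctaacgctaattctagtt
CYTB: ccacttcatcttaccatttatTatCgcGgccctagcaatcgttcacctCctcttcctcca
Gm11410: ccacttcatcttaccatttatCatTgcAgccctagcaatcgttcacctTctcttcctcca

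The tRNA genes spread over a wide range, and those of the light strand had the higher median. The 8 light-strand tRNA genes had a median level of 378 TPM, and 6 of them were above 100 TPM. The 14 heavy-strand tRNA genes had a median of 26.1 TPM, and TrnL1 and TrnW, with 1596 and 196 TPM, were the 2 above 100 TPM. TrnD, TrnG and TrnR did not reach a mean of 1 TPM and were not tested, and TrnS1 was listed at 0 in 11 of 14 libraries. These 4 genes and TrnK, with medians of 0 to 0.600 TPM, lie between COX1 and ND4L, among the genes with copies on chromosome 1. Their levels may be uncertain in the same way, which was not tested. TrnS1 enters the light-strand median above and the others the heavy-strand median.

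Tables of gene levels cannot tell a mature tRNA from a longer RNA that runs through it. Nor need the level of a tRNA gene in libraries made with an mRNA kit follow the tRNA in the cells. TrnL1 (2676 to 2750) is shown in capitals between the last bases of mt-Rnr2 and the first bases of ND1 (2652 to 2774, plus strand). It is shown because the 3 genes adjoin without a gap.
mt-Rnr2, TrnL1 and ND1: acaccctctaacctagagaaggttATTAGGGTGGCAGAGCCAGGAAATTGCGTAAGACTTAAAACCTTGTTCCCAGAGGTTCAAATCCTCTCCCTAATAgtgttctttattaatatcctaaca

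TrnL1 stood at 0.0907 to 0.173 times ND1 within a library. The minus-strand tRNA TrnE (14071 to 14139) directly precedes ND6 (13552 to 14070) in the direction of its transcription, and stood at 0.487 to 0.908 times ND6. Their junction (14047 to 14139) is shown on the minus strand, with the first bases of ND6 in capitals, because both genes were called lower with TGFβ.
TrnE and ND6: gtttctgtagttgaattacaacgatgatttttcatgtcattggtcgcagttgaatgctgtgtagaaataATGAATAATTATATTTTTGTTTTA

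It is not given in the sources used here whether the libraries keep the strand. Without it, reads of a light-strand gene and reads of heavy-strand RNA over the same bases cannot be told apart, and this holds for all 9 light-strand genes. ND5 and ND6 also overlap by 14 bases and ATP8 and ATP6 by 43 bases.

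The first comparison was TGFβ against control within the 7 lines. Together the 37 genes held less of the library with TGFβ in most lines. Their share of TPM was 6.88% ± 0.96 in the TGFβ libraries and 7.81% ± 1.76 in the controls (SD, n = 7 lines each). The difference within lines averaged -0.933 ± 0.886 percentage points (SD).

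The share was lower with TGFβ in 6 lines, least so in the line labelled Vector, with 6.48% with TGFβ against 6.78% in control, and most in that labelled WT-CREB, with 8.64% against 10.8%. The other 4 had 7.28% with TGFβ against 8.61% in control (KCREB), 7.20% against 8.20% (R314A-CREB), 5.75% against 6.28% (S133A-CREB) and 6.75% against 8.39% (S133A-KCREB). The exception was the line labelled S133A/R314A-CREB, with 6.04% with TGFβ and 5.59% in control, which was the lowest share of all. The shares of both treatments overlapped. Summed over members, the share has no test here. In bulk RNA, a lower level per cell and fewer cells of a kind cannot be told apart.

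The 3 classes were not lower in the same lines. Protein-coding genes held 6.06% ± 0.82 with TGFβ and 6.87% ± 1.54 in control, lower in 6 lines. The rRNA genes held 0.312% ± 0.091 with TGFβ and 0.287% ± 0.094 in control, higher in 5 lines and lower in those labelled WT-CREB and S133A-KCREB. The tRNA genes held 0.507% ± 0.099 with TGFβ and 0.659% ± 0.178 in control, lower in all 7 lines (SD, n = 7 for each).

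**Figure D2:**
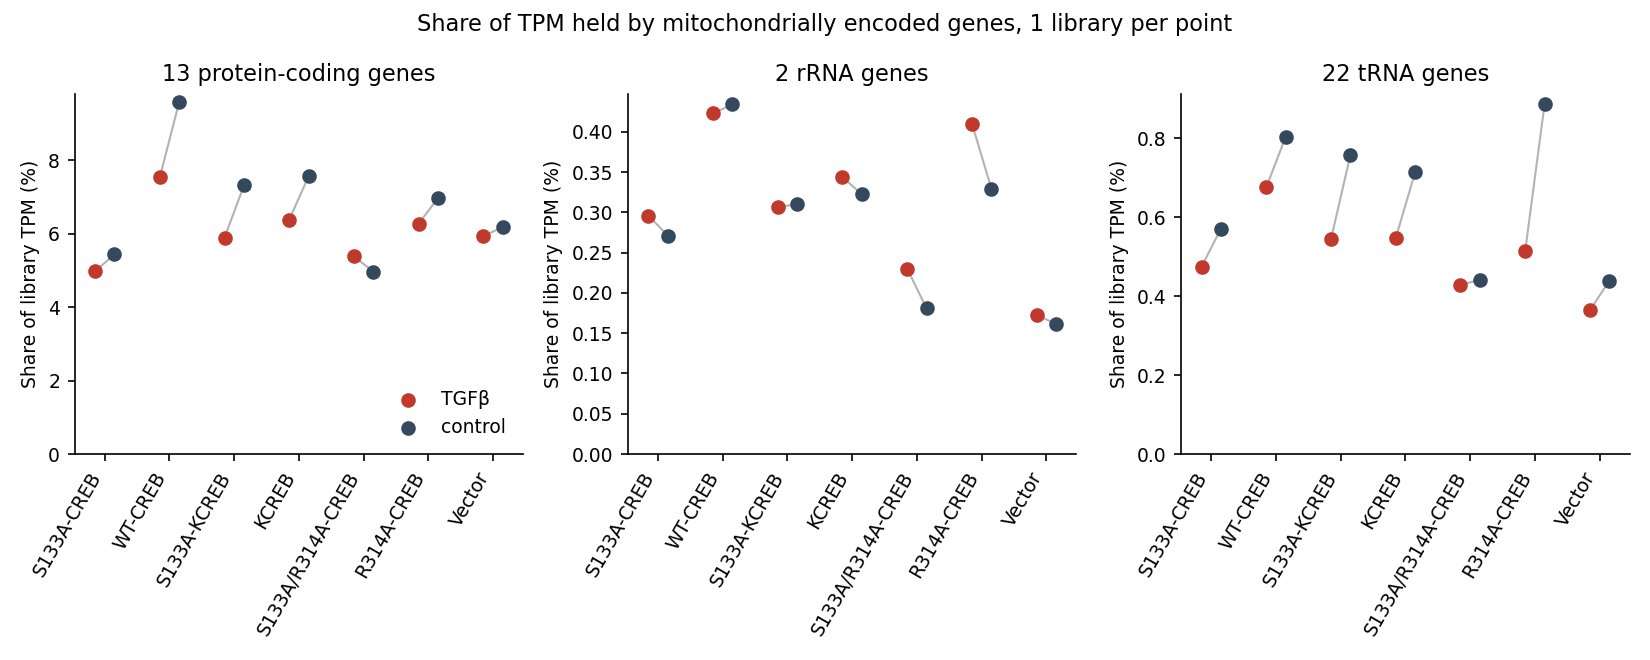
Each point is 1 library, with the TGFβ library left of the control library of the same line and a grey line between them, and the axis is the percent of the library's TPM. The tRNA share is lower with TGFβ in all 7 lines, the protein-coding share in 6, and the rRNA share in 2.

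Gene by gene, 34 of the 37 genes reached a mean of 1 TPM and were tested with all other genes, as log2(TPM + 1) in limma with the line as a block. Lower with TGFβ were 10 of the 34, or 29.4%, and higher were 2, or 5.88% (adjusted p under 0.05). Over all 12,927 genes tested, 21.4% were lower, 24.1% higher and 45.4% either, so the share of lower members as a whole was near that of all genes. The median difference was -0.09 over the 34 genes and 0.02 over all genes tested. TGFβ libraries were below control in all 7 lines for 6 of the 34 genes, COX1, CYTB, ND4, ND5, ND6 and TrnE, where 15.9% of all genes were, and above it for 1, mt-Rnr1, where 18.5% of all genes were.

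ND6, a complex I subunit of the light strand, fell with TGFβ. It ranged from 982 to 1702 TPM in the TGFβ libraries, with a median of 1102 TPM, and from 1131 to 3055 TPM in the controls, with a median of 1926 TPM. Each line was lower with TGFβ, least so the line labelled S133A/R314A-CREB with 1097 TPM with TGFβ and 1131 TPM in control, and the groups overlapped. The log2 difference was -0.64 ± 0.11 (SE, 95% CI -0.88 to -0.40, limma adjusted p = 0.00162).

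Its neighbour TrnE, the tRNA for glutamate, fell by a like amount. It ranged from 587 to 1546 TPM with TGFβ, with a median of 711 TPM, and from 796 to 2380 TPM in control, with a median of 1170 TPM. The libraries labelled WT-CREB were highest in both groups, and the groups overlapped. The log2 difference was -0.66 ± 0.12 (limma adjusted p = 0.00187).

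Of the other light-strand tRNA genes, TrnN, TrnA, TrnC and TrnP also fell. Their log2 differences were -0.45, -0.43, -0.38 and -0.49, with limma adjusted p from 0.0142 to 0.0340. TrnQ, TrnY and TrnS1 were not called, at -0.13, -0.20 and -1.07. TrnS1 was listed at 66.5 TPM in 1 TGFβ library, labelled WT-CREB, and at 125 and 95.3 TPM in the control libraries labelled WT-CREB and Vector.

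TrnA, TrnN, TrnC and TrnY lie side by side at 5018 to 5326. The control library labelled R314A-CREB was highest in all 4, with 926, 1205, 1128 and 815 TPM, against 430, 588, 542 and 360 TPM in the TGFβ library of the same line. That control library also had the lowest coverage per FPKM of all, 5.05. Without the line labelled R314A-CREB, 10 members were still lower. TrnA and TrnP lost their calls without the line labelled KCREB or S133A-KCREB, TrnA and TrnC without that labelled S133A-CREB, TrnC without Vector, and TrnP without that labelled S133A/R314A-CREB. Without the filter on low genes TrnN, TrnA, TrnC and TrnP all lost their calls, with limma adjusted p from 0.0559 to 0.111.

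All 9 light-strand genes thus had a negative estimate, with a median of -0.45, and 6 of the 9, or 66.7%, were called lower against 21.4% of all genes. The estimate of TrnS1, listed at 0 in 11 of 14 libraries, rests on the lines labelled WT-CREB and Vector alone. The genes share the same lines and chromosome, and some adjoin, so these counts are not independent of each other. Of the 25 heavy-strand genes tested, 15 had a positive estimate and the median was 0.07, with 2 called higher and 4 lower. The summed share of the light-strand genes was 0.420% ± 0.069 with TGFβ and 0.629% ± 0.157 in control (SD, n = 7), and lower with TGFβ in all 7 lines. The strand was not used to choose the genes, but the grouping was made with earlier results of these data known and has no test. As with rRNA, the levels of ND6 and of tRNA genes in libraries made with an mRNA kit need not follow those RNAs in the cells.

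Among heavy-strand genes, the 3 long messages at the far end of the chromosome map fell. ND4 (10167 to 11544) ranged from 2700 to 3664 TPM with TGFβ, median 3080 TPM, and from 3142 to 5430 TPM in control, median 3904 TPM. ND5 (11742 to 13565) ranged from 3675 to 5030 TPM with TGFβ, median 4094 TPM, and from 4216 to 7528 TPM in control, median 5425 TPM. CYTB ranged from 9356 to 12,808 TPM with TGFβ, median 10,756 TPM, and from 10,517 to 16,909 TPM in control, median 13,877 TPM.

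All 3 were lower with TGFβ in each of the 7 lines while the groups overlapped. The log2 differences were -0.34 ± 0.06 for ND4 (limma adjusted p = 0.0027), -0.35 ± 0.07 for ND5 (0.00344) and -0.31 ± 0.09 for CYTB (0.0155). The small complex I subunit ND4L, which overlaps ND4 by 7 bases, was called at -0.27 ± 0.08 (0.0185), but lies among the genes of uncertain level. CYTB lost its call under quantile normalization (adjusted p = 0.285, range over its alternatives 0.0059 to 0.428) and without the line labelled S133A-KCREB, ND5 under quantile normalization (0.0512, range 0.00187 to 0.1), and ND4L without Vector. Without the filter on low genes all 3 lost their calls, with adjusted p of 0.428 for CYTB, 0.0734 for ND5 and 0.0578 for ND4L. Quantile normalization gives all libraries the same set of values, so for the highest genes, CYTB among them, it compares ranks more than levels. ND4 shares 60.8% of its 100-base runs with a nuclear copy, so its level is uncertain in part.

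At the near end the rRNA gene mt-Rnr1 (70 to 1024) rose. It ranged from 534 to 1774 TPM with TGFβ, median 920 TPM, and from 413 to 1627 TPM in control, median 789 TPM. The line labelled R314A-CREB moved most, with 1275 TPM with TGFβ and 662 TPM in control, and the groups overlapped. The log2 difference was 0.30 ± 0.10 (limma adjusted p = 0.0353), and the call was lost without Vector, S133A-CREB or S133A/R314A-CREB, under median-of-ratios scaling and without the filter on low genes (0.109).

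TrnF, the phenylalanine tRNA gene that opens the map (1 to 68), rose at a low level. It ranged from 6.82 to 24.0 TPM with TGFβ, median 11.1 TPM, and from 5.61 to 17.5 TPM in control, median 7.99 TPM. It was higher in 6 lines and lower in the line labelled S133A-KCREB, with a log2 difference of 0.48 ± 0.12 (limma adjusted p = 0.0092).

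The remaining long heavy-strand genes were not called. ND1 differed by 0.07 ± 0.10 (limma adjusted p = 0.615), ND2 by 0.07 ± 0.14 (0.722) and mt-Rnr2 by 0.07 ± 0.06 (0.429). COX1 ranged from 16,232 to 21,505 TPM with TGFβ, median 19,039 TPM, and from 17,004 to 24,949 TPM in control, median 21,615 TPM. It was lower with TGFβ in 7 of 7 lines, at -0.19 ± 0.09, and did not pass (0.108).

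COX2, COX3, ATP6, ATP8 and ND3, whose levels are uncertain, were not called either. Their log2 differences were -0.03, -0.24, 0.12, 0.27 and 0.11, and the 95% intervals all included 0. Of these 5, ATP8 spread most between lines, from -0.66 in the line labelled S133A-CREB to 1.33 in the line labelled S133A/R314A-CREB.

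**Figure D3:**
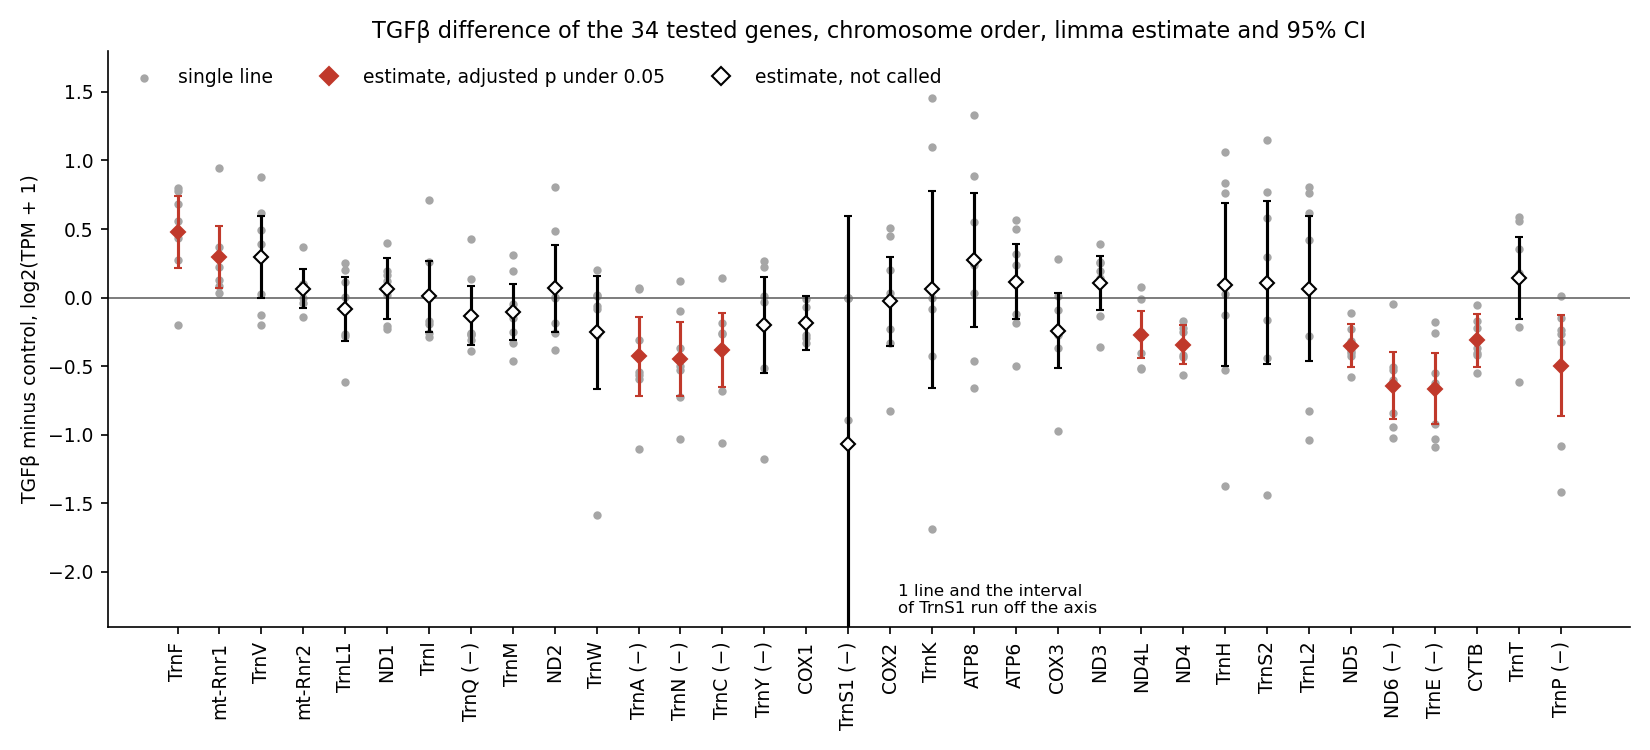
Each grey point is the TGFβ minus control difference of 1 line on the log2(TPM + 1) scale, and each diamond is the limma estimate with its 95% interval, in chromosome order; (−) marks the light-strand genes. The estimates of ND6, TrnE, ND4, ND5 and CYTB lie below 0 and those of TrnF and mt-Rnr1 above 0, while 1 line of TrnS1 lies off the axis at -6.59.

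All 12 calls rest on the pairing within lines. Without the line as a block, 0 of the 34 genes passed in limma and 9 had an unadjusted p under 0.05, while of all genes 645 were called higher and 519 lower. With TPM rescaled to leave out the mitochondrial genes, 2 members were higher and 10 lower, as in the fit above.

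Because TPM shares 1 total, the make-up within the chromosome was also followed, as the percent of the TPM of the 13 protein-coding genes. This leaves the TPM of nuclear genes out of the total, but not reads that nuclear copies may share with COX1, ND4 and the 6 genes of uncertain level. ND1 held 24.1% ± 3.1 of it with TGFβ and 20.7% ± 3.5 in control, higher with TGFβ in 7 of 7 lines. ND2 held 10.9% ± 2.1 with TGFβ and 9.27% ± 1.78 in control, higher in 6 lines and lower in that labelled WT-CREB. CYTB held 18.1% ± 1.1 with TGFβ and 20.1% ± 1.3 in control, lower in 7 of 7 lines (SD, n = 7 for each).

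Lower in all 7 lines were also ND5, with 6.93% with TGFβ and 7.91% in control, ND4, with 5.17% and 5.87%, and ND6, with 2.03% and 2.86%. COX1 held 31.4% with TGFβ and 32.1% in control and moved both ways. The ratio of ND1 to CYTB had a median of 1.32 with TGFβ and 0.958 in control and was higher with TGFβ in each line.

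Set against CYTB within each line, the log2 difference of mt-Rnr1 was higher by 0.35 to 1.31, of mt-Rnr2 by 0.16 to 0.52, of ND1 by 0.20 to 0.53 and of ND2 by 0.02 to 0.87, each in 7 of 7 lines. ND4 was higher than CYTB in 3 lines and lower in 4, and ND5 higher in 2 and lower in 5. ND6, on the other strand, was lower than CYTB in 6 lines. CYTB was picked as the point of comparison after these values were seen.

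Nuclear genes of mitochondrial function were counted from lists, against 24.1% higher and 21.4% lower over all genes. Of 36 nuclear subunits of complex I, 0 were higher and 14 lower, with a median of -0.14. Ndufb4 had 105.9 ± 21.9 TPM with TGFβ and 132.7 ± 30.8 TPM in control (SD, n = 7), and Ndufb11 differed by -0.36 ± 0.08, Ndufv2 by -0.21 ± 0.05 and Ndufs8 by -0.19 ± 0.05. Of the other respiratory lists, complex II had 2 of 4 lower (Sdha and Sdhc), complex III 1 of 9 higher (Cyc1), complex IV 1 of 12 lower (Cox8a) and ATP synthase 2 of 17 lower (Atp5g2 and Atp5c1), with no call in the other direction.

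Of 29 processing genes of mitochondrial RNA 10 were higher and 1 lower, with a median of 0.12. Tbrg4, a FASTK family protein, had 54.7 ± 8.1 TPM with TGFβ and 36.3 ± 3.46 TPM in control, Trmt10c and Hsd17b10, subunits of the mitochondrial ribonuclease P, differed by 0.42 ± 0.07 and -0.48 ± 0.08, and Grsf1, an RNA granule protein, by 0.20 ± 0.04. Of 10 transcription factors of the organelle 3 were higher (Mterf3, Mterf4 and Tfb2m, the initiation factor, at 0.26 ± 0.08) and 1 was lower, the rRNA methyltransferase Tfb1m, at -0.34 ± 0.06, which is near the shares over all genes.

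Of 7 tested regulators of mitochondrial biogenesis 4 were higher and 0 lower, namely Nrf1 (0.24 ± 0.04), Pprc1 (0.47 ± 0.08), Esrra (0.24 ± 0.05) and Gabpa (0.18 ± 0.05). The DNA replication list had 4 of 13 higher, among them the helicase Twnk (0.46 ± 0.08) and Top3a, and 2 lower, Primpol and Dguok. The translation list had 3 of 29 higher, among them Aars2 and Yars2, and 7 lower, among them Mrrf and Iars2. Of 69 mitochondrial ribosomal protein genes tested 11 were higher, among them Mrps21, Mrpl52, Mrps34 and Mrpl44, and 1 lower, but their median level was 2.83 TPM, against 34.9 TPM for the processing genes.

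Markers of mitochondrial content did not go one way. Of 9, 3 were higher (Timm23, Tomm40 and Phb2) and 2 lower, among them Vdac1 with 306 ± 26.1 TPM with TGFβ and 385 ± 57.7 TPM in control (SD, n = 7). Of 8 tested mitophagy genes 4 were lower (Fundc1, Pink1, Bnip3 and Bcl2l13) and 0 higher, and of 14 mitochondrial stress genes 4 were higher, among them Clpp, and 3 lower, Spg7, Trap1 and Atf5.

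The summed level of 5 long RNAs kept in the nucleus ran from 139 to 320 TPM with TGFβ and from 139 to 536 TPM in control and was lower in all 7 lines, with Neat1 and Malat1, the 2 tested, both called lower. Their part in the mitochondrial values was not tested. Of the histone genes whose mRNAs lack a poly(A) tail, 1 of 5 tested was lower, H2bc4, against 21.4% of all genes, and their sum was higher with TGFβ in 3 lines and lower in 4.

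The summed macrophage markers ran from 18.6 to 52.3 TPM with TGFβ and from 29.5 to 93.2 TPM in control, with 3 of 4 tested genes higher (Csf1r, Aif1 and Cd68) and Lyz2 lower, and Adgre1, C1qa and C1qb listed at 0 throughout. Muscle markers ran from 85.7 to 212 TPM with TGFβ and from 12.5 to 117 TPM in control, with Tnnt2 higher and Des lower of 3 tested, and Myod1 and Myog at 0. Endothelial markers ran from 2.21 to 5.15 TPM with TGFβ and from 1.39 to 3.53 TPM in control, with Esam, the 1 tested gene, higher. Lens fiber markers ran from 1.55 to 3.65 TPM with TGFβ and from 2.16 to 13.6 TPM in control, with both tested genes, Crygs and Bfsp2, lower and Crybb2, Crygd and Lim2 at 0. The lens epithelial list summed to 445 to 865 TPM with TGFβ and 556 to 2288 TPM in control, with 5 of 7 tested genes lower, among them Sox2, Cryab, Prox1 and Pax6, and 0 higher.

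The second comparison set the lines labelled S133A against those with the same constructs without it. The mitochondrial share was lower in the S133A lines, with means over both treatments of 6.02% in the line labelled S133A-CREB against 9.74% in WT-CREB, 7.57% in S133A-KCREB against 7.94% in KCREB, and 5.82% in S133A/R314A-CREB against 7.70% in R314A-CREB. Vector stood at 6.63%, between the S133A lines. The group means were 6.47% ± 0.96 for S133A and 8.46% ± 1.11 without it (SD, n = 3 lines each).

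The groups did not overlap in these means, but the 3 pairs differed in size. The pair with S133A-CREB differed by -3.72 percentage points, that with S133A/R314A-CREB by -1.88 and that with S133A-KCREB by -0.377. Without the line labelled WT-CREB the group difference was -1.36, against -1.99 with all lines. Coverage per FPKM was 6.25 to 10.1 in the S133A libraries and 5.05 to 7.77 in those without it, and the part of depth was not tested.

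No single gene passed this comparison. limma was run on the line means, with the construct form (intact, K or R314A) as a term. It called 0 of the 34 members, where the percentage over all 12,927 genes was 0% too. Of all genes 753 had an unadjusted p under 0.05, and the smallest limma adjusted p was 0.0817. The adjusted p of the members ran from 0.804 to 0.999. All 13 protein-coding genes and both rRNA genes had negative estimates, as did 29 of 34 members, or 85.3%, where 48.3% of all genes did.

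The median estimate was -0.46 over the 34 members and 0.01 over all genes. At an unadjusted p under 0.05, 10 members, or 29.4%, were lower (ATP6, ATP8, COX2, ND2, ND6, mt-Rnr1, TrnI, TrnM, TrnP and TrnQ), where 2.02% of all genes were. In 20 members, or 58.8%, the S133A line was below its match in all 3 pairs, where 13.5% of all genes were. The genes share the same 6 lines and 1 chromosome, so these counts are not independent of each other.

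Several genes separated the lines without overlap of the line means. mt-Rnr1 averaged 854 TPM in S133A-CREB against 1701 TPM in WT-CREB, 870 TPM in S133A-KCREB against 1023 TPM in KCREB, and 651 TPM in S133A/R314A-CREB against 968 TPM in R314A-CREB. In the same order of pairs ND2 averaged 4410 against 10,170 TPM, 6516 against 7912 TPM and 5044 against 7588 TPM. COX1 averaged 17,765 against 22,641 TPM, 20,196 against 20,989 TPM and 16,618 against 22,015 TPM.

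In each of these the pair with K was the closest. Line means without overlap, lower with S133A, were found in 8 members, or 23.5%, where 5.19% of all genes had them. The other 5 were mt-Rnr2, ND4, COX2, ATP6 and ATP8, of which the last 3 have uncertain levels and ND4 one uncertain in part. COX1 shares 30.8% of its 100-base runs with nuclear transcripts, so its level is uncertain in part too. Vector lay below both groups for mt-Rnr1 and mt-Rnr2, at 474 and 1196 TPM, and within the group without S133A for COX1, at 21,560 TPM.

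The estimates were -0.58 ± 0.19 for mt-Rnr1, -0.47 ± 0.22 for mt-Rnr2, -0.70 ± 0.24 for ND2, -0.61 ± 0.18 for ND6, -0.48 ± 0.30 for ND1, -0.32 ± 0.18 for ND4 and -0.27 ± 0.20 for ND5 (log2, SE). They were -0.26 ± 0.24 for COX1 and -0.29 ± 0.22 for CYTB, and these 2 changed sign under quantile normalization, to 0.10 and 0.05. That scaling gives all libraries the same set of values, so among the highest genes it compares ranks more than levels. The largest difference in a single pair among the rRNA and protein-coding genes was that of ND2 between the lines labelled S133A-CREB and WT-CREB, -1.19.

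**Figure D4:**
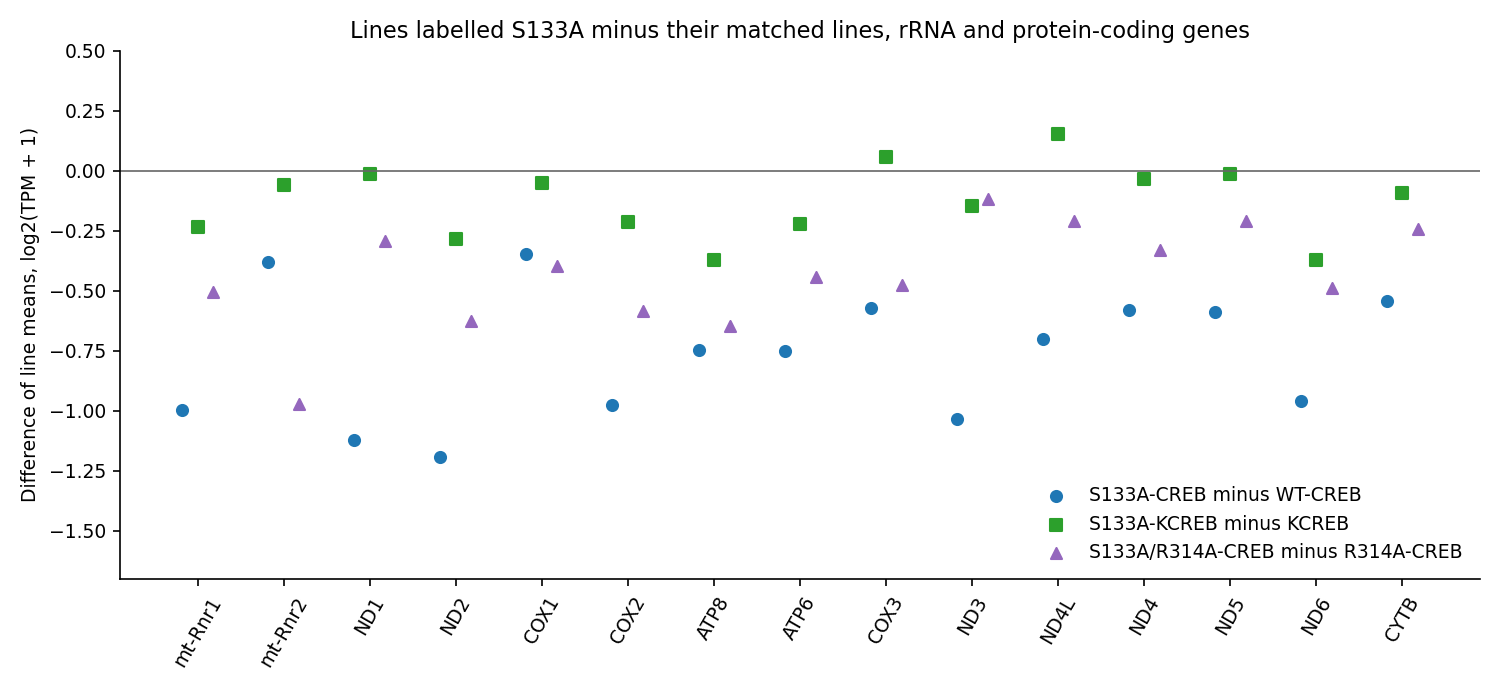
Each point is the difference of 2 line means on the log2(TPM + 1) scale, S133A line minus matched line, for the 2 rRNA and 13 protein-coding genes in chromosome order. Points of the pair with WT-CREB lie lowest for most genes, and those of the pair with KCREB lie between -0.37 and 0.15, with COX3 and ND4L above 0.

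The tRNA genes were less uniform. TrnM, TrnQ and TrnI, which form a cluster between ND1 and ND2, had estimates of -0.81, -0.76 and -0.66 and were lower in all 3 pairs. TrnA, TrnN and TrnC had estimates of 0.00, 0.06 and 0.04, since the pair with R314A-CREB was negative and the other pairs positive. None of the lists of nuclear genes had a call for S133A. The long RNAs kept in the nucleus were lower too in estimate, Neat1 by -1.50 and Malat1 by -0.51, and their part was not tested.

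The third comparison asked if the TGFβ difference itself differs between lines with and without S133A. limma on the differences called 0 of 12,927 genes (455 at an unadjusted p under 0.05, smallest adjusted p = 0.717) and so 0 of 34 members, against 0% of all genes. At an unadjusted p under 0.05 were 4 members, or 11.8%, where 3.52% of all genes were. These were ND4L and the 3 adjoining tRNA genes TrnH, TrnS2 and TrnL2, for histidine, serine and leucine, which stand between ND4 and ND5.

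The block of 3 is shown as 1 run of 196 bases (11546 to 11741, plus strand) with TrnS2 in capitals, because the genes adjoin without a gap and share the pattern. TrnS2 and TrnL2 overlap by 1 base.
TrnH, TrnS2 and TrnL2: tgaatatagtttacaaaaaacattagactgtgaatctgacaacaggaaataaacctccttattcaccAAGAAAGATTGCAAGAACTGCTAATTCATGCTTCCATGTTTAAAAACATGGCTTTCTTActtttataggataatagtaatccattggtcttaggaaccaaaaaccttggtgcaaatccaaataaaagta

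TrnH was lower with TGFβ in each S133A line, with 19.2 TPM against 28.03 TPM in control in the line labelled S133A-CREB, 19.9 against 21.9 TPM in S133A-KCREB and 26.7 against 70.5 TPM in S133A/R314A-CREB. It was higher with TGFβ in each line with the serine, with 59.8 TPM against 34.9 TPM in control in the line labelled WT-CREB, 28.1 against 12.9 TPM in KCREB and 77.4 against 42.9 TPM in R314A-CREB. Vector had 11.01 TPM with TGFβ and 10.8 TPM in control. The interaction estimate was -1.56 ± 0.22 (SE) and did not pass (limma adjusted p = 0.828).

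TrnS2 and TrnL2 had the same signs in the same 6 lines, with estimates of -1.52 ± 0.18 and -1.44 ± 0.17 (limma adjusted p = 0.828 for each). A difference of opposite sign in all 3 S133A and all 3 matched lines was found in 3 members, or 8.82%, where 0.828% of all genes had it. All 3 were lower in the S133A lines and higher in the matched lines, as 0.503% of all genes were, and 0 members had the reverse pattern, which 0.325% of all genes had. Reads that cross the borders of these genes are shared between their rows, so the 3 are not separate observations. Their long neighbours moved otherwise: ND4 and ND5 were lower with TGFβ in all 7 lines, with interaction estimates of 0.18 ± 0.16 and 0.19 ± 0.16 (adjusted p = 0.999 for each).

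**Figure D5:**
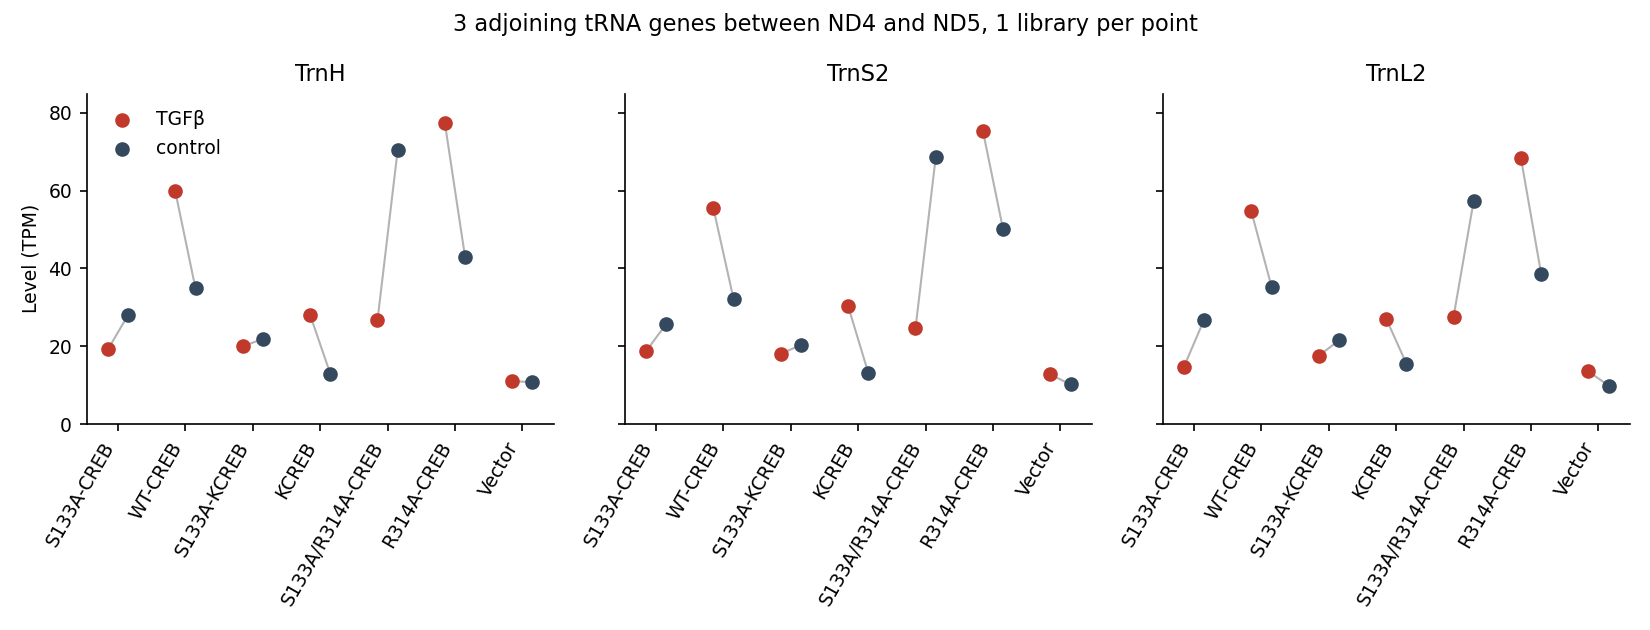
Each point is 1 library, with the TGFβ library left of the control library of the same line, and the axis is the level in TPM from 0. In the 3 lines labelled S133A the TGFβ point lies below the control point for TrnH, TrnS2 and TrnL2, and in those labelled WT-CREB, KCREB and R314A-CREB above it.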

How the data were processed

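Tables with the layout of StringTie gene abundances on GRCm39 were used. The submitters' processing notes list edgeR, StringTie 2.0.4 and STAR 2.7.6a but not their roles. The deposited values are TPM, FPKM and coverage per base, per the file headers, and rows that share a gene identifier were summed. There are no read counts, so no counting interval is given and depth is known only through coverage per FPKM. An exact 0 can be a failed estimate.

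The 12,927 genes that averaged 1 TPM or more were tested as log2(TPM + 1), a scale that understates the change of low genes, with limma 3.58.1 in R 4.3.3, an intensity trend and Benjamini-Hochberg adjustment over all genes (threshold 0.05, two-sided). TGFβ was fitted with the line as a block. S133A was fitted on the means of the 6 CREB lines, and its interaction with TGFβ on their differences. These S133A fits had the construct form (intact, K or R314A) as a term. Lines are the replicates. The p-values for TGFβ and the interaction describe how the TGFβ differences within lines spread, and those for S133A how the line means spread. The line label pairs libraries; across genes, deviations of both libraries of a line had r between 0.614 and 0.845, and those of different lines at most 0.275. The fits were also run on simulated data with known changes. Their recovery is not given here, so that run is no measure of what the S133A comparison could detect. Alternatives were the filter, pseudocount, scaling, FPKM, intensity trend, block, the term for construct form and each line left out.

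Sequences and nuclear copies were taken from GENCODE M21 transcripts (GRCm38) with blastn 2.17.0 at a minimum identity of 90% and with shared 100-base words. Every gene of the mitochondrial chromosome was a member. Protein-coding and rRNA genes were named with values and tRNA genes by range, and of each list up to 4 genes with the smallest adjusted p among those that passed. Members and lists were chosen with earlier results of these data known.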

Additional observations from a re-analysis of the deposited data

Results flagged for a closer look

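In each of the treatment groups the library farthest from the others was compared with the range of its group. This was done for the 34 tested genes and 4 summed shares (all members and the 3 classes). Of 76 such values 8 stood apart, each of a single gene, where chance gives about 1 in 20 for independent values. The genes share libraries and some adjoin, so these values are not independent and the rate is only a rough guide. A single library above 0 among libraries at 0 stands apart by this rule at any level. Among TGFβ libraries, that labelled WT-CREB stood apart for TrnE, with 1546 TPM against 587 to 824 TPM in the other 6, and for TrnS1, with 66.5 TPM and the others at 0. The TGFβ library labelled S133A-KCREB stood apart for TrnV, with 13.9 TPM against 7.25 to 9.95 TPM, and for TrnY, with 480.0 TPM against 286 to 364 TPM. Among control libraries, that labelled WT-CREB stood apart for ND5, with 7528 TPM against 4216 to 5450 TPM, and for ND3, with 33.4 TPM against 18.2 to 24.4 TPM. The control library labelled R314A-CREB stood apart for TrnW, with 495.7 TPM against 134 to 285 TPM, and for TrnY, with 815.0 TPM against 312 to 409 TPM.

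The TGFβ difference had opposite signs in all 3 lines labelled S133A and all 3 matched lines for TrnH, TrnS2 and TrnL2. The interaction estimates were -1.56, -1.52 and -1.44 and did not pass in limma (adjusted p = 0.828 for each, and from 0.273 to 1 over the 16 alternatives).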

How the results depend on the processing

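Of the 12 genes called for TGFβ, TrnF, ND4, ND6 and TrnE kept their call in 16 of 17 alternatives. Without the replicate block 0 members were higher and 0 lower, and 645 and 519 of all genes. Without a filter 1 member was higher and 3 lower, with median-of-ratios scaling 1 was higher, and leaving out each line in turn gave 1 to 3 higher and 7 to 10 lower. The share difference between TGFβ and control was -1.16 to -0.724 percentage points with a line left out, and that between S133A and intact lines -2.54 to -1.36. With coverage weighted by gene span, which counts introns of nuclear genes, the S133A difference was -0.129 percentage points. The share itself was far smaller on that scale, at 0.343% to 0.513% in S133A libraries and 0.446% to 0.661% in intact ones. The group means of the TPM share were 6.47% and 8.46%, so the sizes of these differences cannot be compared directly. For S133A, 4 genes of all tested were higher without the term for construct form and 1 with Vector added, and no member. COX1 and CYTB reversed for S133A under quantile normalization, to 0.10 and 0.051, a setting that compares ranks more than levels among the highest genes.

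Reversed TGFβ estimates, none called, were TrnI at -0.011 with median-of-ratios scaling, -0.0057 with TPM rescaled and -0.0090 with quantile normalization, and TrnK at -0.0019 with a pseudocount of 5. With a line left out, estimates ran from -0.139 to 0.0058 for TrnL1, -0.108 to 0.058 for TrnI, -0.056 to 0.143 for ND2, -0.117 to 0.105 for COX2, -0.170 to 0.354 for TrnK, -0.066 to 0.339 for TrnH, -0.066 to 0.366 for TrnS2 and -0.057 to 0.2496 for TrnL2. The cause was not tested. With 1 library per line and treatment and 3 lines per S133 state, small and large differences between lines can go uncalled here. Over all genes tested, S133A estimates ran from -3.26 to 4.17 (log2) with 0 called, so an absence of calls does not exclude a difference. How reads were divided between mitochondrial genes and nuclear copies was not tested.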
